A study of Arabidopsis thaliana with 12 samples.

Results

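The genes described here are 37 nuclear genes of Arabidopsis thaliana that encode the subunits of photosystem I (PSI) and photosystem II (PSII) and the light-harvesting proteins bound to them, other than LHCB1 and LHCB2. They were chosen by name out of 33326 genes in the table. By role, 6 encode PSI antenna proteins (LHCA1 to LHCA6), 7 encode PSII antenna proteins (LHCB3, LHCB4.1 to LHCB4.3, LHCB5, LHCB6 and LHCB7), 12 encode PSI subunits and 12 encode PSII subunits. All 37 passed the filter on low counts, with estimated counts of at least 43 per library, the lowest being those of PSBP2.

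RNA-Seq was run on 12 libraries, 3 biological replicates in each of 4 groups: WT at day, bou-2 at day, WT at night and bou-2 at night. WT is Col-0. The bou-2 line carries a T-DNA in exon 2 of BOU, which encodes a mitochondrial carrier whose loss impairs glycine decarboxylase and so photorespiration. All plants grew for 35 days at 3000 ppm CO2 in cycles of 12 h light and 12 h dark, and all were moved to ambient CO2 24 h before harvest, so no group stayed at high CO2 and the mutant was studied as 1 line. By the methods of the study whole rosettes were taken, at night 3 h before the light came on and at day about 10 min after it. The labels instead name mature leaves and 2 h on either side of light onset. In the day samples the sampling-time field names the end of the day, which contradicts the beginning of the day in their titles. Day here means the harvest at the beginning of the day that the titles name.

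The mutated gene was used to check the labels. BOU was at 230.4, 139 and 171 TPM in WT at day and at 153, 162 and 176 TPM in WT at night, against 80.6, 80.7 and 80.2 TPM in bou-2 at day and 65.2, 67 and 65.5 TPM in bou-2 at night, so that no bou-2 library reached a WT library. Estimated counts summed to 15911356 to 33046562 per library, with the bou-2 day libraries the shallowest (15911356 to 20952513). The 4 leaf mesophyll markers (RBCS1A, RCA, CA1 and GAPB) summed to 28914 to 37414 TPM in WT at day, 20549 to 23431 TPM in bou-2 at day, 34960.3 to 36809.5 TPM in WT at night and 23105 to 24815 TPM in bou-2 at night. Most of that sum was RBCS1A, with a mean of 23369 TPM in WT at day. RBCS1A and CA1 were lower in bou-2 at both times and RCA at night, while at day RCA overlapped between the genotypes and GAPB had means of 2028 TPM in WT and 2076 TPM in bou-2. At night GAPB was at 2494, 2582 and 2615 TPM in WT and 2127, 2307 and 2049 TPM in bou-2, without overlap. The 7 flower markers summed to at most 2.02 TPM and the 5 root markers to at most 0.614 TPM in any library. Since the samples are bulk tissue, a smaller share of mesophyll cells and less RNA of these genes per cell cannot be told apart, and the part of these markers in the results below was not tested.

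As background, the photosystems are pigment-protein complexes of the thylakoid membrane. PSII takes electrons from water and passes them to plastoquinone, and PSI passes electrons from plastocyanin to ferredoxin. Their reaction centre proteins and many of their small subunits are encoded in the plastid. The extrinsic PSII subunits, the other small subunits and all LHCA and LHCB antenna proteins are encoded in the nucleus. The complexes are thus assembled from products of both genomes. Nuclear photosystem genes are known for transcript levels that follow light and the circadian clock, for activation by the GLK transcription factors and for repression when plastids are damaged.

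The sequence upstream of each gene start was read from the RefSeq assembly TAIR10.1, in which all 37 genes were found by their locus names. In 250-base windows, 4 elements known from light- and clock-regulated plant promoters were searched on both strands: the G-box CACGTG, the I-box core GATAAG, the evening element AAATATCT and the CCA1 binding site AAAAATCT. The G-box was found in 10 of 37 windows (27.0%), against 6.49% of the windows of 27443 protein-coding genes. By role, it was in 1 of 6 PSI antenna windows, 3 of 7 PSII antenna windows (LHCB4.1, LHCB6 and LHCB7), 2 of 12 PSI subunit windows (PSAE2 and PSAH2) and 4 of 12 PSII subunit windows (PSBP2, PSBQ1, PSBQ2 and PSBTN). The I-box core was found in 9 of 37 windows (24.3%, against 12.3% of all), the evening element in 1 (2.70%, against 4.79%) and the CCA1 binding site in 3 (8.11%, against 6.69%). Because 21 of the 37 windows reach into a neighbouring gene, the matches are a description of the letters in these windows and no test was made. The windows of 3 members from different roles that hold a G-box and lie clear of other annotated genes are shown with the matched elements in capitals, 5′ to 3′ toward the gene start, for LHCA4 (chr3:17495034-17495283, gene on the minus strand), LHCB4.1 (chr5:208616-208865, plus strand) and PSBQ2 (chr4:2673244-2673493, minus strand).
LHCA4: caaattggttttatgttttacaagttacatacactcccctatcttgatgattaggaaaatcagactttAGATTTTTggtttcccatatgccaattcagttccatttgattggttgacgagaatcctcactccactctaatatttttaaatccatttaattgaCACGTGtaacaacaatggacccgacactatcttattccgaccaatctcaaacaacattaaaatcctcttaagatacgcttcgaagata
LHCB4.1: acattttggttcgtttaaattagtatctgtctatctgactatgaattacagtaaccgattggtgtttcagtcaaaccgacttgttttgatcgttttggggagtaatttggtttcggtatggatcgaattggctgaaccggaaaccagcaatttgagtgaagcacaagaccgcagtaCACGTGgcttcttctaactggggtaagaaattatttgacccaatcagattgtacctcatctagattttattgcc
PSBQ2: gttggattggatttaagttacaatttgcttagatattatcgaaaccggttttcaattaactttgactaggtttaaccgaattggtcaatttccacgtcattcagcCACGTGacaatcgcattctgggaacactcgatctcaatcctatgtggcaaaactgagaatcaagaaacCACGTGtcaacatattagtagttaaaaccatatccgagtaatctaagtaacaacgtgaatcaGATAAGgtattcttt
The LHCA4 window holds 1 CCA1 binding site and 1 G-box, the LHCB4.1 window 1 G-box, and the PSBQ2 window 2 G-boxes and 1 I-box core. The G-box of LHCA4 ends 83 bases before the gene start, that of LHCB4.1 ends 69 bases before it and the nearer one of PSBQ2 ends 72 bases before it. All 3 genes had lower transcript levels in bou-2 at day, as described below. Of the other members with a G-box, LHCB6, PSAE2, PSAH2 and PSBQ1 were lower at day, LHCB7 was higher, and PSBP2 and PSBTN were not called. Members with no G-box in the window, such as LHCB3 and PSAD2, were also lower. A link between the G-box and these levels was not tested.

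At day, transcripts of 26 of the 37 genes were lower in bou-2 than in WT and 1 was higher (edgeR's quasi-likelihood test, Benjamini-Hochberg adjusted p under 0.05). Among all 20458 genes tested, 12.8% were lower and 14.8% were higher in this comparison. The median log2 fold change of bou-2 against WT was -0.65 over the 37 members, against -0.04 over all genes tested. Without WT day replicate 3 the member median was -0.40. In TPM (transcript abundance scaled for library size and transcript length), the 3 bou-2 libraries all lay below the 3 WT libraries for 29 members, where 12.9% of all genes had such a gap. The 8 genes without it were LHCA5, LHCA6, LHCB4.3, LHCB7, PSAF, PSBP2, PSBS and PSBX. Of these, LHCB7 lay above WT in each bou-2 library, as did 24.5% of all genes. The summed level of the 37 genes was 70417 ± 11868 TPM (SD, n = 3) in WT, which is 7.04% of all TPM, and 45704 ± 4227 TPM in bou-2, or 4.57%.

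At night 16 of the 37 genes were lower in bou-2 and 0 were higher by the same test, while 12.2% of all genes were lower and 14.8% were higher. The 1 member with a positive value, PSAF, had a log2 fold change of 0.01, and DESeq2 and limma also called 0 members higher. The median log2 fold change was -0.45 over the members and 0.02 over all genes. In TPM, 28 members lay below WT in each bou-2 library, against 19.2% of all genes. PSAD2 and PSAF lay above WT in each bou-2 library, as did 37.7% of all genes. The summed level was 54724 ± 1347 TPM in WT (5.47% of all TPM) and 43057 ± 2001 TPM in bou-2 (4.31%).

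How many members passed changed with the libraries in the fit, for a cause that was not tested. The 3 WT day libraries spread most, with summed member levels of 58939.8 to 82641 TPM, against 53568 to 56202 TPM in WT at night. Fitted with only the 6 day libraries, 9 members were lower at day, and fitted with only the 6 night libraries, 29 were lower at night. Without WT day replicate 3, 17 members were lower at day, and without bou-2 day replicate 3 it was 15. At night 10 were lower without WT night replicate 1 or 2, and 9 without bou-2 night replicate 1 or 3. At day, 9 members were lower in the main fit and in each alternative that was run, namely LHCA1, LHCA4, LHCB3, LHCB4.2, LHCB5, LHCB6, PSAD2, PSAE2 and PSBQ2. At night this held for LHCA1, LHCA4, LHCB4.2, LHCB4.3, LHCB5, LHCB6, PSAE2, PSAL and PSBQ2. Of the members not called at night, LHCA2, PSAD1, PSAG and PSBO2 passed without WT day replicate 3, LHCB4.1, PSAN and PSBO1 without WT day replicate 2, and PSBO2 also without WT day replicate 1. Log2 fold changes computed from TPM with limma lay 0.10 higher in the median over all genes than those of edgeR, at day and at night. On that scale LHCA5 at day and LHCA3, PSAD2 and PSAO at night changed sign, none of which was called in either fit.

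**Figure D1:**
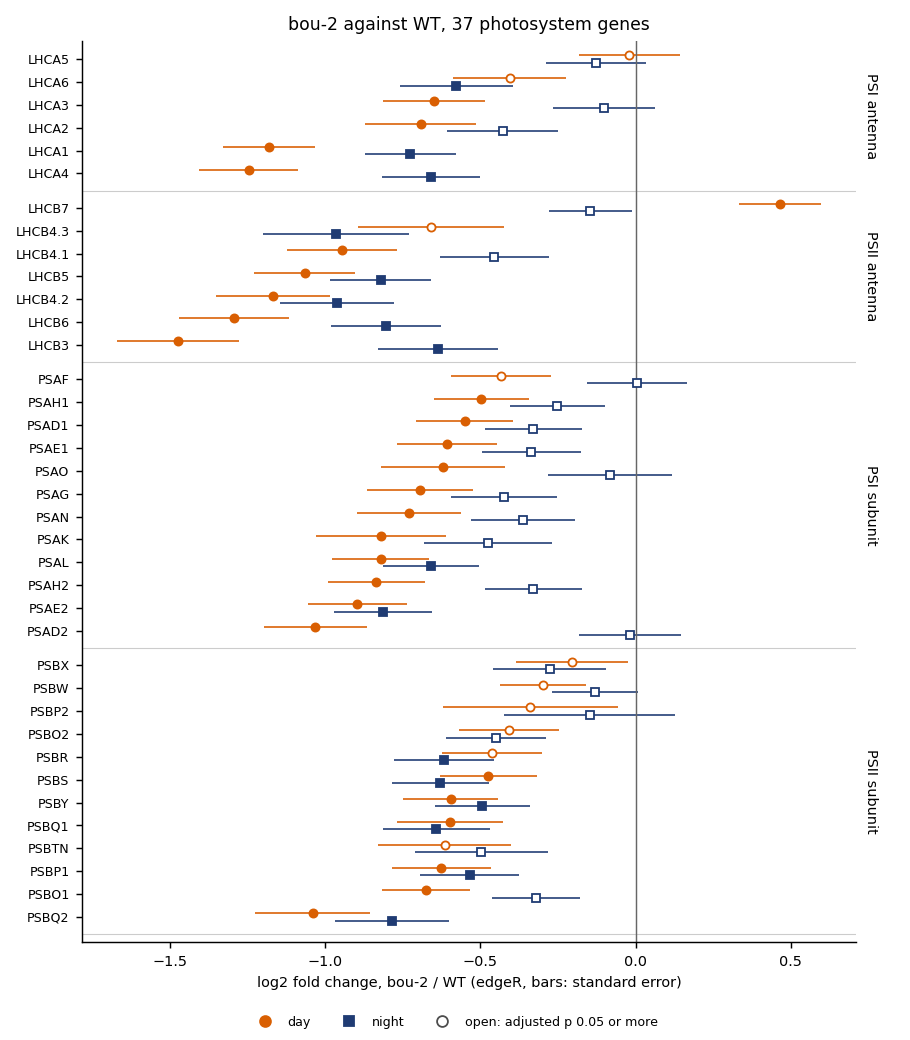
Log2 fold change of bou-2 against WT (x axis, edgeR estimate with its standard error) for each of the 37 genes, by role, at day (orange circles) and night (blue squares), with open symbols where the adjusted p was 0.05 or more. All day values but that of LHCB7 lie left of 0, from -1.47 for LHCB3 to -0.02 for LHCA5, and LHCB7 is at 0.47.

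The light-harvesting proteins of PSI bind along one side of the core, LHCA1 with LHCA4 and LHCA2 with LHCA3, while LHCA5 and LHCA6 are scarce proteins that link PSI to the chloroplast NAD(P)H dehydrogenase complex. In bou-2, 4 of these 6 genes were lower at day and 3 at night, and LHCA1 and LHCA4 were lower at both times. Their summed level was 10413 ± 1903 TPM in WT and 5886 ± 605 TPM in bou-2 at day, and 5734 ± 360.2 TPM and 4563 ± 180.2 TPM at night.

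LHCA4 (AT3G47470, chr3:17493343-17495033, minus strand), which carries the red-shifted chlorophylls of PSI, fell furthest of the PSI antenna genes at day. It was at 2932, 2424 and 3594 TPM in the 3 WT libraries and at 1451, 1356 and 1232 TPM in the 3 bou-2 libraries (log2 fold change -1.25, standard error 0.16, edgeR adjusted p = 0.000468). At night LHCA4 was at 929, 902 and 1041 TPM in WT and 618, 679.5 and 659.6 TPM in bou-2 (log2 fold change -0.66, standard error 0.16, edgeR adjusted p = 0.0124). Neither pair of groups overlapped, and the bou-2 day libraries lay above every WT night library. LHCA1 (AT3G54890), its partner, showed the largest fall of the class at night, from 1012, 1008 and 1204 TPM to 688, 729.9 and 679 TPM (log2 fold change -0.73, standard error 0.15, edgeR adjusted p = 0.00532). At day LHCA1 was at 2878, 2274 and 3134 TPM in WT and 1411, 1321 and 1179.5 TPM in bou-2 (log2 fold change -1.18, standard error 0.15, edgeR adjusted p = 0.000409).

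LHCA2 (AT3G61470) was the most abundant PSI antenna transcript over the WT libraries. It was at 2185, 2161 and 2915 TPM in WT and 1872, 1640.2 and 1309 TPM in bou-2 at day (log2 fold change -0.69, standard error 0.18, edgeR adjusted p = 0.0182). At night it was at 2289, 2098 and 2391 TPM in WT and 1752, 1931 and 1743 TPM in bou-2, with the groups apart but the test not passed (log2 fold change -0.43, standard error 0.18, edgeR adjusted p = 0.114). The day call of LHCA2 was lost without WT day replicate 3 (adjusted p = 0.0539) or without bou-2 day replicate 3 (adjusted p = 0.0599). LHCA3 (AT1G61520) was called at day (-0.65, edgeR adjusted p = 0.0163), a call lost without bou-2 day replicate 3 (adjusted p = 0.0662), and its night value was -0.10. In the fit of the 6 day libraries alone neither LHCA2 nor LHCA3 was called (adjusted p = 0.116 and 0.118).

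The scarcer pair had far lower levels. LHCA5 (AT1G45474) ranged from 160.4 to 232 TPM over the 12 libraries, with a log2 fold change of -0.02 at day and -0.13 at night, and neither passed the test. These values are of its transcript model 2. Model 1, with 41.2% of the TPM of the gene, was at 141, 143 and 157 TPM in WT and 125, 104 and 94.8 TPM in bou-2 at night, where the groups did not overlap and the test was passed (log2 fold change -0.56, edgeR adjusted p = 0.0108). At day model 1 was at 134, 128 and 148 TPM in WT and 119.7, 135 and 149 TPM in bou-2, with overlap (-0.13, adjusted p = 0.497). LHCA6 (AT1G19150) ranged from 89.9 to 161 TPM. It was lower in bou-2 at night (log2 fold change -0.58, standard error 0.18, edgeR adjusted p = 0.0423), a call lost in 7 of the 12 fits that each left out 1 library (adjusted p 0.0522 to 0.114), and its day value was -0.41 (adjusted p = 0.135, and 0.0428 without WT day replicate 2). Other transcript models of members held under 5% of the TPM of their gene. Of these, model 4 of LHCA1 was lower in bou-2 at day (-1.21) and at night (-0.89), model 2 of LHCA3 at day (-1.24), model 1 of LHCB4.2 at both times (-1.90 and -0.92) and model 2 of PSBS at night (-0.54), as log2 fold changes.

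In PSII, LHCB3 is part of the trimers that it forms with LHCB1 and LHCB2, and the monomeric proteins LHCB4 (CP29), LHCB5 (CP26) and LHCB6 (CP24) connect the trimers to the core. LHCB7 (AT1G76570) is a related protein of low abundance. Of these 7 genes, 5 were lower in bou-2 at day and 5 at night, and LHCB7 was the 1 member of all 37 that was higher. The median log2 fold change was -1.07 at day and -0.80 at night. The summed level was 13874 ± 2761 TPM in WT and 6594 ± 761 TPM in bou-2 at day, and 7334 ± 208 TPM and 4847 ± 218 TPM at night.

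LHCB3 (AT5G54270, chr5:22038165-22039568, plus strand) had the largest day fall of the 37 genes. Its level was 4883, 2472 and 3722 TPM in the WT day libraries and 1533, 1438 and 1262 TPM in those of bou-2 (log2 fold change -1.47, standard error 0.20, edgeR adjusted p = 0.000589). The WT libraries differed widely from each other, but the lowest of them stayed above the highest bou-2 library. At night LHCB3 was at 720.3, 697 and 772 TPM in WT and 491, 530.2 and 495 TPM in bou-2 (log2 fold change -0.64, standard error 0.19, edgeR adjusted p = 0.0357). That night call was lost in 6 of the 12 fits that each left out 1 library (adjusted p 0.0747 to 0.106) and in both limma fits on TPM (adjusted p = 0.0742 and 0.0761).

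LHCB5 (AT4G10340) was the most abundant transcript of the class over the WT libraries. It was at 3469.6, 2968 and 4449 TPM in WT and 1949, 1906 and 1724 TPM in bou-2 at day (log2 fold change -1.07, standard error 0.16, edgeR adjusted p = 0.00122), and at 2232, 2271 and 2506 TPM and 1426, 1475 and 1367 TPM at night (log2 fold change -0.82, standard error 0.16, edgeR adjusted p = 0.00462). LHCB6 (AT1G15820, chr1:5446462-5447880, minus strand) was at 2406, 1822 and 2704 TPM in WT and 1097, 1083 and 836 TPM in bou-2 at day (log2 fold change -1.29, standard error 0.18, edgeR adjusted p = 0.00073). At night LHCB6 fell from 948, 958 and 884 TPM to 571, 597 and 555 TPM (log2 fold change -0.80, standard error 0.18, edgeR adjusted p = 0.00817). For both genes the lowest WT library exceeded the highest bou-2 library at either time.

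LHCB7 (AT1G76570, chr1:28728998-28730851, plus strand) moved the other way at day. It was at 63, 46.9 and 55.3 TPM in WT and 74.6, 77 and 93.3 TPM in bou-2, so each bou-2 library was above each WT library (log2 fold change 0.47, standard error 0.13, edgeR adjusted p = 0.0265). At night the groups overlapped at 20.5, 21.7 and 29.1 TPM in WT and 23.9, 23.4 and 22.1 TPM in bou-2 (log2 fold change -0.15, standard error 0.13, edgeR adjusted p = 0.492). This day call was lost without WT day replicate 2 (adjusted p = 0.0699), without bou-2 day replicate 2 (adjusted p = 0.0789) or without bou-2 day replicate 3 (adjusted p = 0.0916), and in the fit of the 6 day libraries alone (adjusted p = 0.0703). The difference between its day and night effects was 0.61 with an edgeR adjusted p of 0.165.

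The 3 LHCB4 copies differed in level. LHCB4.1 (AT5G01530) was the most abundant, at 3208, 1968 and 2667 TPM in WT and 1688, 1452 and 1179 TPM in bou-2 at day (log2 fold change -0.95, standard error 0.18, edgeR adjusted p = 0.00369). At night it was at 2148, 2046 and 2122 TPM and 1625, 1751 and 1587 TPM, without passing the test (log2 fold change -0.45, standard error 0.18, edgeR adjusted p = 0.0884). LHCB4.2 (AT3G08940) was lower in bou-2 at both times, at 1200.5, 1189 and 1678 TPM in WT and 739, 661 and 546 TPM in bou-2 at day (log2 fold change -1.17, standard error 0.18, edgeR adjusted p = 0.00145). Its night levels were 749, 739 and 813 TPM in WT and 422, 459.7 and 389 TPM in bou-2 (log2 fold change -0.96, standard error 0.18, edgeR adjusted p = 0.00397). LHCB4.3 (AT2G40100, chr2:16745628-16747424, plus strand), a copy known to rise under strong light, had the lowest levels of the 3 copies and, with LHCB4.2, the largest night falls of the 37 genes. It was at 429, 449.9 and 445 TPM in WT and 232, 252 and 247 TPM in bou-2 at night (log2 fold change -0.96, standard error 0.24, edgeR adjusted p = 0.0139). At day the groups overlapped, at 147, 222 and 282 TPM and 172, 154 and 119 TPM (log2 fold change -0.66, standard error 0.24, edgeR adjusted p = 0.0669), and that difference passed the test without WT day replicate 1 (adjusted p = 0.00709), with counts summed per gene (adjusted p = 0.0483) and in DESeq2 (adjusted p = 0.0249). For LHCB4.1 the day call was lost in the fit of the 6 day libraries alone (adjusted p = 0.0503).

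**Figure D2:**
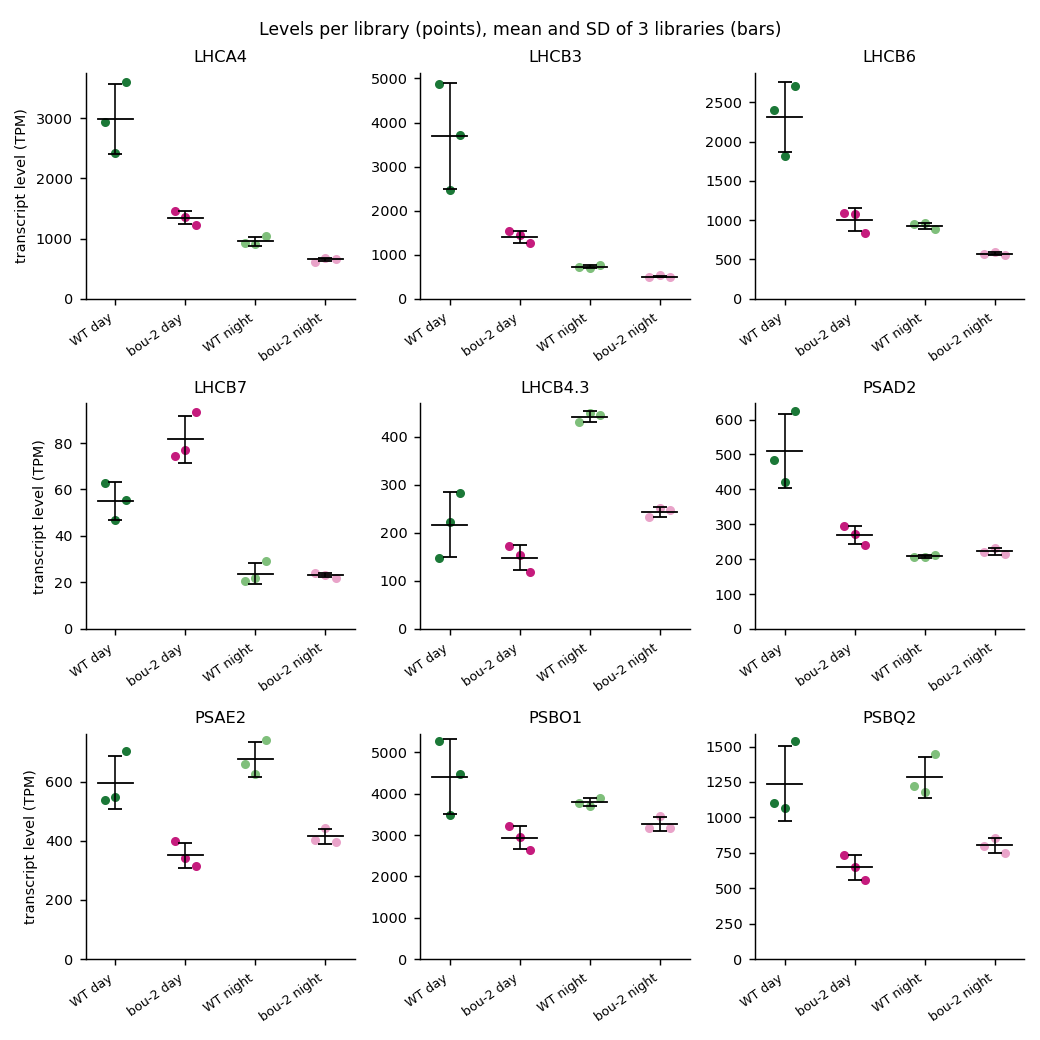
Transcript level in TPM (y axis from 0, with a scale of its own per gene) of 9 genes in each library (points), by group, with the mean and SD of the 3 libraries. LHCA4 and LHCB3 step down from WT day to bou-2 day to WT night to bou-2 night, LHCB7 is highest in bou-2 at day and LHCB4.3 is highest in WT at night.

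Among the PSI subunits, PSAD and PSAE lie on the stromal side, where ferredoxin docks, and PSAF and PSAN take part in binding plastocyanin in the lumen. PSAG and PSAK are membrane proteins next to the antenna, and PSAH, PSAL and PSAO form the side at which mobile PSII antenna binds in state transitions. At day 11 of the 12 genes were lower in bou-2, the exception being PSAF, while at night 2 were, namely PSAE2 and PSAL. The median log2 fold change was -0.71 at day and -0.33 at night, the latter being -0.22 from TPM with limma. Of the 12 PSI subunit genes, 12 had a day effect below the night effect, and none of them passed edgeR's test of that difference. Without WT day replicate 3 it was 9 of 12, and the median difference went from -0.31 to -0.07. The summed level was 20682 ± 3726 TPM in WT and 14034 ± 1399 TPM in bou-2 at day, against 16147 ± 458 TPM and 13841 ± 679.7 TPM at night.

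PSAD2 (AT1G03130, chr1:753307-754262, minus strand) fell furthest of the PSI subunits at day. It was at 484, 420.5 and 625 TPM in WT and 294, 273 and 241 TPM in bou-2 (log2 fold change -1.03, standard error 0.17, edgeR adjusted p = 0.00159). At night it was at 207, 206 and 213 TPM in WT and 220.1, 232 and 214 TPM in bou-2, where each bou-2 library was slightly above each WT library in TPM while the edgeR estimate was near 0 (log2 fold change -0.02, standard error 0.16, edgeR adjusted p = 0.954). The difference between the day and night effects of PSAD2 was -1.01, with a standard error of 0.23 and an edgeR adjusted p of 0.0761. This difference was called by DESeq2 (adjusted p = 0.00258), by limma on log2(TPM + 1) (adjusted p = 0.0326) and by edgeR without WT day replicate 2 or 3 (adjusted p = 0.0458 and 0.0335).

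PSAD1 (AT4G02770), the more abundant PSAD copy, was at 1384, 1375 and 1886 TPM in WT and 1163, 1166 and 1109 TPM in bou-2 at day (log2 fold change -0.55, standard error 0.16, edgeR adjusted p = 0.0276). Its night levels were 1088, 1148 and 1026 TPM in WT and 898, 983 and 925 TPM in bou-2 (log2 fold change -0.33, standard error 0.16, edgeR adjusted p = 0.161). Its day call was lost without WT day replicate 3 (adjusted p = 0.0651), without bou-2 day replicate 1 (adjusted p = 0.0716) or without bou-2 day replicate 3 (adjusted p = 0.101). PSAE2 (AT2G20260, chr2:8736734-8737767, plus strand) showed the largest night fall of the class, from 658, 625 and 740.3 TPM to 403, 444 and 397 TPM (log2 fold change -0.81, standard error 0.16, edgeR adjusted p = 0.00439). At day it was at 539, 549 and 702 TPM in WT and 398, 341 and 316 TPM in bou-2 (log2 fold change -0.90, standard error 0.16, edgeR adjusted p = 0.00278). PSAE1 (AT4G28750) was at 1798, 1599 and 2243 TPM in WT and 1415, 1406 and 1200.0 TPM in bou-2 at day (log2 fold change -0.61, standard error 0.16, edgeR adjusted p = 0.0196), a call lost without WT day replicate 3 (adjusted p = 0.0557) or without bou-2 day replicate 3 (adjusted p = 0.0734). At night PSAE1 was at 1485, 1471 and 1549 TPM and 1257, 1354 and 1244 TPM (log2 fold change -0.34, standard error 0.16, edgeR adjusted p = 0.16).

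The PSAH copies were of similar level. PSAH2 (AT1G52230) was at 1413, 1142 and 1681 TPM in WT and 934, 864 and 791 TPM in bou-2 at day (log2 fold change -0.84, standard error 0.16, edgeR adjusted p = 0.0038), and at 862, 860.0 and 936 TPM and 751, 789 and 745 TPM at night (log2 fold change -0.33, standard error 0.16, edgeR adjusted p = 0.159). PSAH1 (AT3G16140) was at 1222, 1163 and 1506 TPM in WT and 1135, 987 and 883 TPM in bou-2 at day (log2 fold change -0.50, standard error 0.15, edgeR adjusted p = 0.0385), and at 1219, 1213 and 1319 TPM and 1100.0, 1213 and 1089 TPM at night (log2 fold change -0.25, standard error 0.15, edgeR adjusted p = 0.275). Only for PSAH1 of the pair did the night groups overlap. PSAH1 lost its day call in 9 of the 12 fits that each left out 1 library (adjusted p 0.051 to 0.128), and PSAH1 overlaps a gene on the other strand over 788 bases, with a library kit that does not mark strand.

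PSAL (AT4G12800), which had the highest WT mean of the class, was at 2511, 2168 and 2943 TPM in WT and 1767, 1523 and 1348 TPM in bou-2 at day (log2 fold change -0.82, standard error 0.16, edgeR adjusted p = 0.0039). At night PSAL was at 2083, 1983 and 2320.2 TPM in WT and 1430.5, 1547 and 1381 TPM in bou-2 (log2 fold change -0.66, standard error 0.15, edgeR adjusted p = 0.0115), again without overlap. The remaining PSI subunits with a day call were PSAG (AT1G55670), PSAK (AT1G30380), PSAN (AT5G64040) and PSAO (AT1G08380), at log2 fold changes of -0.69, -0.82, -0.73 and -0.62, with edgeR adjusted p of 0.0145, 0.0165, 0.0107 and 0.0447. The call of PSAG was lost without bou-2 day replicate 3 (adjusted p = 0.0596), that of PSAK without WT day replicate 3 (adjusted p = 0.0534) and that of PSAO in 10 of the 12 fits that each left out 1 library (adjusted p 0.0596 to 0.149). PSAF (AT1G31330) had log2 fold changes of -0.43 at day (adjusted p = 0.0752, 0.0336 without WT day replicate 2 and 0.0329 in DESeq2) and 0.01 at night (adjusted p = 0.989). In the fit of the 6 day libraries alone, PSAD2 and PSAE2 were the PSI subunits still called at day.

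The PSII subunits include the extrinsic proteins PSBO, PSBP and PSBQ, which shield the water-oxidizing manganese cluster in the lumen, and PSBR, which helps to attach them. PSBS is the protein that triggers the rapid dissipation of excess light energy as heat, and PSBW, PSBX, PSBY and PSBTN are small proteins of the complex. Of these 12 genes, 6 were lower in bou-2 at day and 6 at night. The median log2 fold change was -0.53 at day, or -0.31 without WT day replicate 3, and -0.50 at night. The summed level was 25447 ± 4000.2 TPM in WT and 19189 ± 1486 TPM in bou-2 at day, and 25509 ± 334 TPM and 19805 ± 948 TPM at night.

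PSBQ2 (AT4G05180, chr4:2671523-2673243, minus strand), whose promoter window is shown above, had the largest fall of the class at both times. It was at 1103, 1066 and 1542 TPM in WT and 736, 649.8 and 558 TPM in bou-2 at day (log2 fold change -1.04, standard error 0.18, edgeR adjusted p = 0.00283), and at 1223, 1180.3 and 1449.8 TPM and 799, 857 and 751 TPM at night (log2 fold change -0.78, standard error 0.18, edgeR adjusted p = 0.0113). PSBQ1 (AT4G21280) was at 1532, 1548 and 2175 TPM in WT and 1365, 1273 and 1115 TPM in bou-2 at day (log2 fold change -0.60, standard error 0.17, edgeR adjusted p = 0.0285). At night PSBQ1 was at 1969.6, 1969.7 and 1970.0 TPM and 1351, 1438 and 1298 TPM (log2 fold change -0.64, standard error 0.17, edgeR adjusted p = 0.0208). The day call of PSBQ1 was lost without WT day replicate 3 (adjusted p = 0.0714), without bou-2 day replicate 1 (adjusted p = 0.0517) or without bou-2 day replicate 3 (adjusted p = 0.105), and its night call in 4 of the 12 fits that each left out 1 library (adjusted p 0.0541 to 0.0714). All libraries of either PSBQ gene were lower in bou-2 than in WT at the same time.

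PSBO1 (AT5G66570, chr5:26568572-26570461, plus strand) was the most abundant member in WT at day. Its level was 5283, 3478 and 4476 TPM in WT and 3213, 2951 and 2644 TPM in bou-2 at day (log2 fold change -0.68, standard error 0.14, edgeR adjusted p = 0.00692), and 3771, 3705 and 3904 TPM and 3176, 3452 and 3175 TPM at night (log2 fold change -0.32, standard error 0.14, edgeR adjusted p = 0.133). PSBO2 (AT3G50820) was at 1034, 1039.6 and 1409 TPM in WT and 977, 991 and 843 TPM in bou-2 at day (log2 fold change -0.41, standard error 0.16, edgeR adjusted p = 0.0933). At night it was at 1333, 1348 and 1346 TPM and 1021, 1133 and 1020.1 TPM (log2 fold change -0.45, standard error 0.16, edgeR adjusted p = 0.0691). PSBO2 was thus called at neither time although its groups did not overlap, and it passed in some alternatives. At day these were without WT day replicate 1 (adjusted p = 0.0463) and DESeq2 (adjusted p = 0.04997). At night they were without WT day replicate 1 or 3 (adjusted p = 0.0473 and 0.0128), counts summed per gene (adjusted p = 0.0438), the 6 night libraries alone (adjusted p = 0.00321) and DESeq2 (adjusted p = 0.0176).

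PSBP1 (AT1G06680) carried nearly all of the PSBP transcript. It was at 2460.3, 2323 and 3316 TPM in WT and 1996, 1897 and 1751 TPM in bou-2 at day (log2 fold change -0.63, standard error 0.16, edgeR adjusted p = 0.0168), and at 2468, 2398 and 2532 TPM and 1756, 1977 and 1770.5 TPM at night (log2 fold change -0.53, standard error 0.16, edgeR adjusted p = 0.0336). PSBP1 lost its day call without bou-2 day replicate 3 (adjusted p = 0.0685) and its night call in 6 of the 12 fits that each left out 1 library (adjusted p 0.057 to 0.1). PSBP2 (AT2G30790) was at 3.91, 4.51 and 7.17 TPM in WT and 3.96, 5.16 and 4.2 TPM in bou-2 at day, and at 7.79, 6.87 and 9.33 TPM and 7.28, 9.28 and 6.72 TPM at night. The PSBP2 groups overlapped at both times and its log2 fold changes of -0.34 and -0.15 did not pass the test.

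PSBR (AT1G79040) had the highest mean level of the 37 genes over the WT libraries. At day it was at 3511, 3669.8 and 4511 TPM in WT and 3283, 3264 and 2652 TPM in bou-2 (log2 fold change -0.46, standard error 0.16, edgeR adjusted p = 0.0603), and the test was passed in DESeq2 (adjusted p = 0.0208), with counts summed per gene (adjusted p = 0.0498), when bou-2 day replicate 2 was left out (adjusted p = 0.0497) and when WT day replicate 1 was (adjusted p = 0.0352). At night PSBR was at 4761, 4466 and 5004 TPM in WT and 3156, 3537 and 3319.7 TPM in bou-2 (log2 fold change -0.62, standard error 0.16, edgeR adjusted p = 0.0184), a call lost in 4 of the 12 fits that each left out 1 library (adjusted p 0.052 to 0.0647). PSBS (AT1G44575) was at 2646, 1923 and 3042 TPM in WT and 1964, 1935 and 1998 TPM in bou-2 at day, where WT replicate 2 lay below the 3 bou-2 libraries and the call stood at the threshold (log2 fold change -0.47, standard error 0.16, edgeR adjusted p = 0.0499). It was lost in 11 of the 12 fits that each left out 1 library (adjusted p 0.0608 to 0.161). At night PSBS was at 2061, 2152 and 2001 TPM in WT and 1420.0, 1504 and 1411 TPM in bou-2 (log2 fold change -0.63, standard error 0.16, edgeR adjusted p = 0.015), and that call was lost in 3 of the 12 fits that each left out 1 library (adjusted p 0.0507 to 0.0565).

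Of the small PSII proteins, PSBY (AT1G67740) was lower in bou-2 at day (-0.60, adjusted p = 0.0171) and at night (-0.49, adjusted p = 0.0386). Its day call was lost without WT day replicate 3 (adjusted p = 0.0563) or without bou-2 day replicate 3 (adjusted p = 0.0641) and its night call in 5 of the 12 fits that each left out 1 library (adjusted p 0.0633 to 0.128). PSBW (AT2G30570), PSBX (AT2G06520) and PSBTN (AT3G21055) were called at neither time, with log2 fold changes of -0.30, -0.20 and -0.62 at day and -0.13, -0.28 and -0.50 at night. Without WT day replicate 1, PSBTN passed the day test (adjusted p = 0.0391), as it did with counts summed per gene (adjusted p = 0.044) and in DESeq2 (adjusted p = 0.0205).

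**Figure D3:**
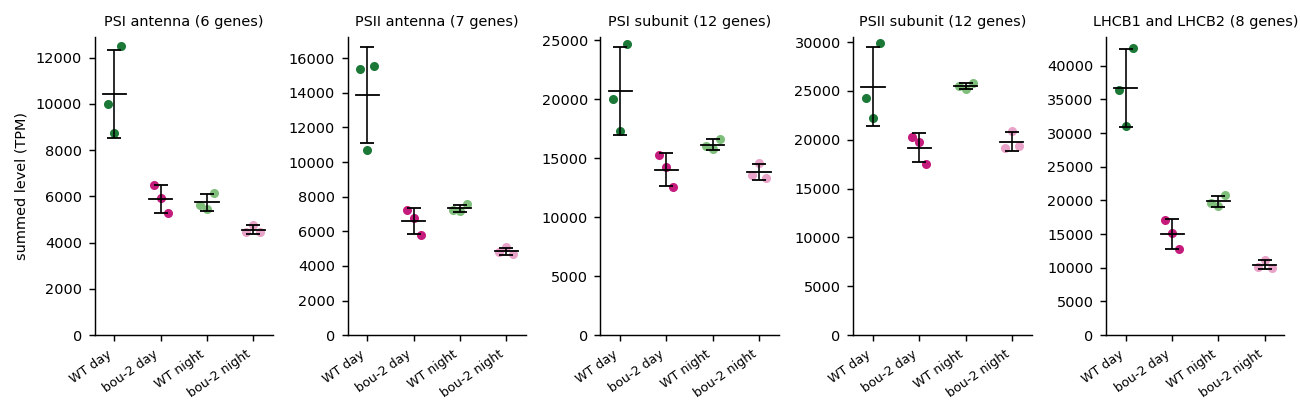
Summed transcript level in TPM (y axis from 0) of the 4 roles and of the 8 LHCB1 and LHCB2 genes in each library (points), with the mean and SD of the 3 libraries of each group. In each of the 5 panels the bou-2 libraries lie below the WT libraries of the same time, and in the PSII subunit panel the 2 WT groups have means of 25447 and 25509 TPM.

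Day and night were compared within each genotype. These comparisons share the day and the night libraries with those of bou-2 against WT, so the 2 sets of values are not independent. In WT, 13 of the 37 genes were higher at day and 1 was lower, against 5.58% and 3.88% of all genes. In bou-2, 7 were higher and 0 lower, against 7.68% and 7.69% of all genes. At an unadjusted p under 0.05, 2 members were lower at day in bou-2, DESeq2 called 0 lower and limma called 2, LHCB4.3 and PSBP2. In TPM, 16 members were higher in each WT day library than in each WT night library (7.68% of all genes), and 14 were higher in each bou-2 day library than in each bou-2 night library (13.3% of all genes). In the other direction, 1 member was lower in each WT day library (22.9% of all genes), and 6 were lower in each bou-2 day library (32.2% of all genes). The median log2 fold change of day against night was 0.42 in WT and 0.18 in bou-2 over the members, and 0.01 and -0.01 over all genes. The member median in WT was 0.22 without WT day replicate 3, and that in bou-2 was 0.29 without bou-2 day replicate 3. From TPM with limma the all-gene medians lay 0.13 lower, and the member medians were 0.26 in WT and 0.04 in bou-2. Fitted with only the 6 libraries compared, 6 members were higher at day in WT and 13 in bou-2, and without WT day replicate 3 it was 12 in bou-2.

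Antenna genes made up most of the calls. In WT, 8 of 13 antenna genes and 5 of 24 subunit genes were higher at day, and in bou-2 6 of 13 and 1 of 24 were. LHCB3 had the largest day-night step of the 37 in WT (log2 fold change 2.46, standard error 0.20, edgeR adjusted p = 4.39e-05), and its step in bou-2 was 1.62 (adjusted p = 0.000364). LHCA4 followed with 1.77 in WT (adjusted p = 8.84e-05) and 1.18 in bou-2 (adjusted p = 0.000712). LHCA1 stood at 1.49 and 1.04, and LHCB6 at 1.44 and 0.95, all called. In bou-2 the largest step was that of LHCB7 (log2 fold change 1.95, standard error 0.14, edgeR adjusted p = 9.44e-06), which in WT was 1.33 (adjusted p = 0.000174). The steps of LHCA1, LHCA4, LHCB3, LHCB6 and LHCB7 were called in both genotypes in the main fit and in each alternative run.

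LHCB4.3 was the 1 gene that was lower at day than at night in WT (log2 fold change -0.88, standard error 0.24, edgeR adjusted p = 0.0438). The 3 WT day libraries were all below the 3 WT night libraries, but the call was lost in 10 of the 12 fits that each left out 1 library (adjusted p 0.0536 to 0.112), and in bou-2 the value was -0.58 (adjusted p = 0.139). Its sister copy LHCB4.2 was higher at day in both genotypes (0.96 in WT, adjusted p = 0.00835, and 0.75 in bou-2, adjusted p = 0.0205). In bou-2 the call of LHCB4.2 was lost without bou-2 day replicate 1 (adjusted p = 0.0562), without bou-2 day replicate 2 (adjusted p = 0.0716), without bou-2 night replicate 1 (adjusted p = 0.0651) or without bou-2 night replicate 3 (adjusted p = 0.0763). LHCB5 was higher at day in WT (0.77, adjusted p = 0.0138), a call lost without WT night replicate 1 (adjusted p = 0.0665) or without WT night replicate 2 (adjusted p = 0.0558).

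Among the subunits, the PSI genes PSAD1, PSAD2, PSAF, PSAH2 and PSAN were higher at day in WT, with log2 fold changes of 0.64, 1.42, 0.62, 0.81 and 0.74. PSAD2 had the largest of these (log2 fold change 1.42, standard error 0.17, edgeR adjusted p = 0.000439), against 0.41 in bou-2 (adjusted p = 0.129). The calls of PSAD1, PSAF and PSAN were lost in 3, 8 and 5 of the 12 fits that each left out 1 library, with adjusted p up to 0.104, 0.119 and 0.0849. No PSII subunit was called in WT, where 3 had an unadjusted p under 0.05 and DESeq2 called 1, PSBW. In bou-2 PSBS was called (log2 fold change 0.58, standard error 0.16, edgeR adjusted p = 0.0342), which was lost in 6 of the 12 fits that each left out 1 library (adjusted p 0.0588 to 0.104), and no PSI subunit was, with 3 at an unadjusted p under 0.05 and 2, PSAD1 and PSAD2, called by DESeq2.

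**Figure D4:**
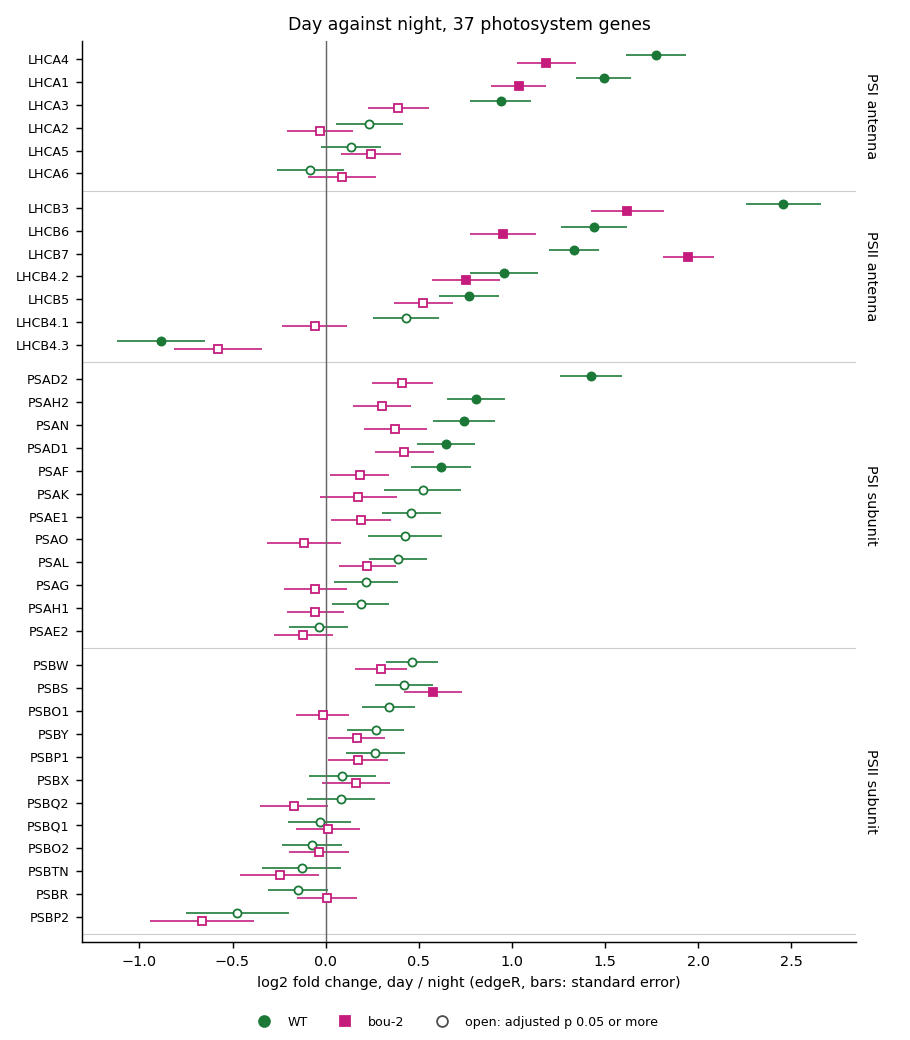
Log2 fold change of day against night (x axis, edgeR estimate with its standard error) for each of the 37 genes, by role, in WT (green circles) and bou-2 (pink squares), with open symbols where the adjusted p was 0.05 or more. LHCB3, LHCA4, LHCA1 and LHCB6 lie furthest right in WT, LHCB7 lies furthest right in bou-2 and LHCB4.3 and PSBP2 lie furthest left in both genotypes.

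Whether the bou-2 effect differed between day and night was tested by the interaction. None of the 37 genes passed it in edgeR, against 0.538% of all genes with a higher and 0.645% with a lower day effect. At an unadjusted p under 0.05 there were 7, with LHCA1, LHCA3, LHCA4, LHCB3, PSAD2 and PSAH2 lower and LHCB7 higher. DESeq2 and limma each called 1, which was PSAD2. The difference was -1.01 for PSAD2, -0.84 for LHCB3 (adjusted p = 0.184, and 0.026 without WT day replicate 2) and -0.59 for LHCA4 (adjusted p = 0.245). The median difference was -0.24 over the members and -0.03 over all genes. It rested on WT day replicate 3, without which the member median was 0.01, with 20 members above 0 and 17 below, against 9 and 28 with all libraries. Without bou-2 day replicate 3 the median was -0.12.

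Of the subunits, 6 are encoded by 2 genes each, and LHCB4 is encoded by 3, and the share of each copy in the TPM of its subunit was computed per library as a description. The copies hold few 31-base words in common in their annotated transcripts, between 0 and 5 per pair, with PSAD1 and PSAD2 sharing the 5. PSAD2 made up 24.7% ± 1.25 (SD, n = 3) of the PSAD transcript in WT at day and 19% ± 1.18 in bou-2 at day, against 16.1% ± 1 in WT at night and 19.2% ± 0.456 in bou-2 at night. The share was thus highest in the WT day libraries and lowest in the WT night libraries, with both bou-2 groups in between. PSAE2 made up 24.1% ± 1.28 of PSAE in WT and 20.8% ± 1.23 in bou-2 at day, and 31% ± 1.27 and 24.4% ± 0.251 at night, so at either time all bou-2 libraries were below all WT libraries.

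PSAH2 held 52% ± 2.14 of PSAH in WT and 46.4% ± 1.08 in bou-2 at day, and 41.5% ± 0.037 and 40.2% ± 0.693 at night. The share of PSBQ2 was 41.4% ± 0.536 in WT and 34.1% ± 0.871 in bou-2 at day, and 39.4% ± 2.63 and 37.1% ± 0.362 at night. By these means PSBQ2 was the smaller part of its pair in each group, and PSAH2 was so in each group except WT at day. The share of PSBO2 was 21.1% ± 4.13 in WT and 24.2% ± 0.915 in bou-2 at day, with WT replicate 1 apart from the other two, and 26.1% ± 0.519 and 24.4% ± 0.222 at night. PSBP2 stayed under 1% in each library. Within LHCB4, LHCB4.3 made up 5.3% ± 1.8 in WT at day and 13.3% ± 0.519 in WT at night, and was 6.62% ± 0.163 and 10.5% ± 0.531 in bou-2. LHCB4.2 was 32.6% ± 5.44 in WT and 29.1% ± 0.582 in bou-2 at day, where the groups overlapped, and 23.1% ± 0.805 and 18.2% ± 0.629 at night, where they did not.

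**Figure D5:**
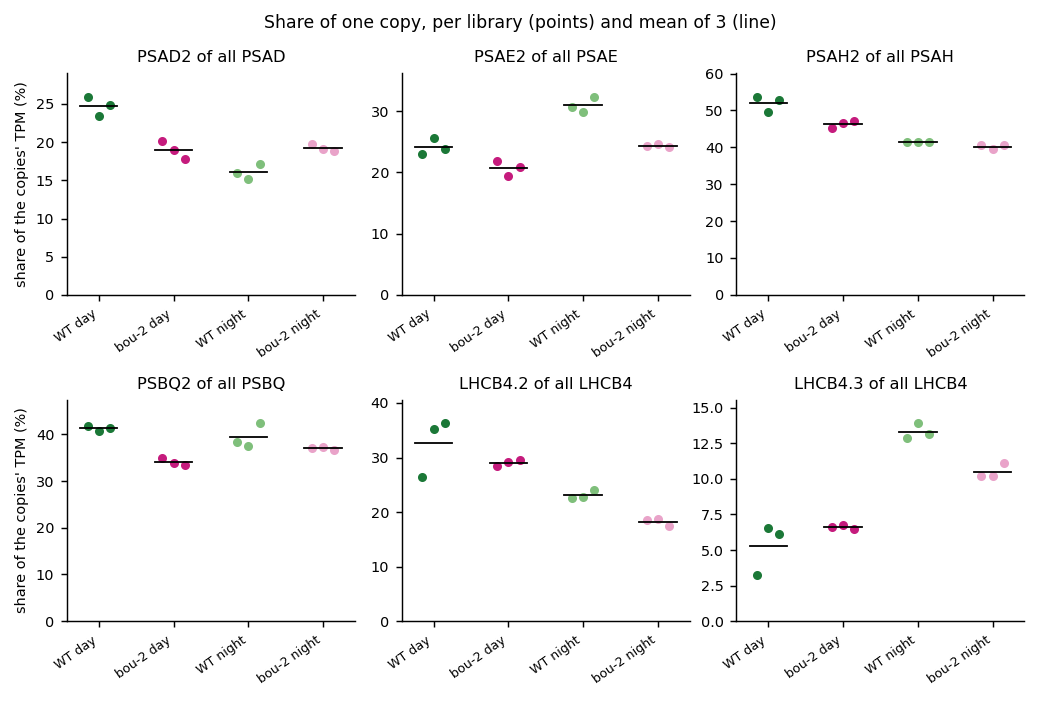
Share of one gene copy in the summed TPM of its subunit (y axis, percent, from 0) in each library (points) with the mean of the 3 libraries (line), by group. PSAD2 is highest in WT at day, PSAE2 and LHCB4.3 are highest in WT at night, and PSBQ2 is lowest in bou-2 at day.

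Other genes of the photosynthetic apparatus were counted in lists by role. For comparison with the lists here and below, 12.8% of all genes tested were lower and 14.8% higher in bou-2 at day. At night 12.2% were lower and 14.8% higher. All 8 LHCB1 and LHCB2 genes, which encode the major PSII antenna, were lower in bou-2 at day (median -1.45, from -3.01 for LHCB2.3 to -1.02 for LHCB2.1), and 5 were at night (median -1.13). These are near-identical copies in part, so counts of single copies are uncertain. Of 14 genes of electron transport and ATP synthase, 3 were lower at day (PETE1 -0.62, PETE2 -0.71 and ATPG -0.51) and 6 at night, among them LFNR2 (-0.98), ATPG (-0.74), PETE2 (-0.72) and PGRL1A (-0.66). PETE1 and PETE2 encode plastocyanin, LFNR2 a ferredoxin-NADP reductase, ATPG a subunit of the ATP synthase and PGRL1A a protein of cyclic electron flow. Of 8 genes of photosystem assembly and phosphorylation, 0 were called at day by edgeR, with 1 at an unadjusted p under 0.05, and 1 was lower at night, STN8 (-0.36), a kinase of PSII core proteins. The night count of 1 among 8 is near the 12.2% of all genes that were lower.

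Among 5 regulators, GLK1 and GLK2, which activate antenna and chlorophyll synthesis genes, were lower in bou-2 at both times. GLK1 was at 174, 222 and 191 TPM in WT and 129, 96.3 and 116 TPM in bou-2 at day (log2 fold change -0.88, standard error 0.20, edgeR adjusted p = 0.00884), and at 193, 175 and 296 TPM and 75.7, 82.9 and 106 TPM at night (log2 fold change -1.43, standard error 0.20, edgeR adjusted p = 0.000801). GLK2 was at 89.9, 65.1 and 59 TPM in WT and 50.6, 39.8 and 42.8 TPM in bou-2 at day (log2 fold change -0.77, standard error 0.12, edgeR adjusted p = 0.00172), with a night value of -0.72 (adjusted p = 0.0024). SIG5, a sigma factor that directs plastid RNA polymerase to psbD and other genes, was higher in bou-2 at day (0.65, adjusted p = 0.0252) and at night (0.73, adjusted p = 0.0151), and GUN1, a plastid protein of retrograde signalling, at day (0.32, adjusted p = 0.0317). HY5, a light-signalling factor that binds G-boxes, was not called between the genotypes (0.21 at day and 0.38 at night), and was higher at day than at night in both (2.57 in WT and 2.40 in bou-2). At night HY5 was at 22.0, 20.1 and 23.5 TPM in WT and 29.2, 28.2 and 34.9 TPM in bou-2. Each bou-2 library thus lay above each WT library, as for 37.7% of all genes.

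The 8 plastid-encoded photosystem genes gave no call between the genotypes by edgeR, with 1 at an unadjusted p under 0.05 at day and 0 at night, and DESeq2 called 0 at either time. At day all 8 had positive values (median 1.07, and 0.49 without bou-2 day replicate 2), and at night all 8 had negative values (median -0.41, and 0.01 without WT night replicate 2). In bou-2, 5 of the 8 were higher at day than at night (median 1.92), against 7.68% of all genes. But 0 were called when bou-2 day replicate 2, bou-2 night replicate 2 or bou-2 night replicate 3 was left out, and 1 without bou-2 day replicate 3. Their summed level was 108 to 235 TPM in WT and 224 to 633 TPM in bou-2 at day, and 82 to 235 TPM and 47.5 to 168 TPM at night, a spread between libraries of up to several-fold. Mean levels in WT at day were 6.46 TPM for psaA and 117 TPM for psbA. In each group the library with the highest sum also had the most AT2G01021, a transcript left out with the rRNA in an alternative fit. In bou-2 day replicate 2 it was at 69527 TPM. A link between these levels and the plastid values was not tested. Of 8 senescence markers, NYC1 (1.43), SGR1 (0.77) and PAO (0.65), which act in chlorophyll breakdown, were higher in bou-2 at day and WRKY53 (-1.11) was lower, while NYC1 (0.73) and PAO (0.60) were higher at night. Over the list, 4 values were positive and 4 negative at day (median -0.28), and 7 and 1 at night (median 0.44). SAG12, SAG29 and ORE1 had lower mean TPM in bou-2 at day. At night ORE1 had means of 10.6 TPM in WT and 21.3 TPM in bou-2, SAG13 of 40.8 and 166 TPM, and SAG12 of 9.53 and 1.43 TPM. ORE1, SAG13 and SAG12 were not called at night. At an unadjusted p under 0.05, 5 of the 8 were higher in bou-2 at night and 0 lower. The list summed to 166 to 432 TPM in WT and 333 to 578 TPM in bou-2 at day, and to 204 to 238 TPM and 380.0 to 537 TPM at night, so that the groups overlapped at day and not at night. At day the WT sums held 233 TPM of SAG29 in replicate 1 and 249 TPM of SAG13 in replicate 2. The part of these markers in the lower photosystem transcripts was not tested.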

How the data were processed

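Each group has 3 libraries, labelled biological replicates. Reads were 150 bp pairs from a HiSeq 3000, 12 libraries per lane. The estimated counts per transcript and the TPM values per library were made by the authors with kallisto 0.43.0 on the TAIR10 transcriptome and deposited without further scaling. The authors also deposited log2 ratios and q-values of their own comparisons (sleuth 0.28.1), which were not used. Lines that repeated a transcript with identical values, 23 of 41415, were dropped.

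Estimated counts were rounded to whole numbers, filtered with filterByExpr (minimum count 10, leaving 26153 transcripts) and scaled by TMM, and 1 edgeR 4.0.16 quasi-likelihood model of the 4 groups took in all 12 libraries (R 4.3.3). The Benjamini-Hochberg adjustment covered all transcripts of a contrast, with a threshold of 0.05. A gene is represented by its most abundant transcript over the WT libraries. Other transcripts of members, 12 of 9 genes, were under 5% of the TPM of the gene except for 1 of LHCA5. Of the 37 genes, 15 overlap an annotated neighbour, mostly on the other strand, and the kit does not mark strand, so reads there cannot be told apart. The longest overlaps were 788 bases for PSAH1, 479 for PSAG, 436 for PSAE1 and 358 for LHCB6. Positions and sequences are from RefSeq TAIR10.1. The alternatives were DESeq2 1.42.0 (Wald test, or its size factors in edgeR), limma 3.58.1 on log2(TPM + 1) or log2(TPM + 0.1), no filter, counts summed per gene, organelle and rRNA transcripts left out, only the 6 libraries compared, a replicate block, and each library left out in turn. The scripts were tested on simulated data.

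The members, lists and tests were chosen with earlier results of these data known. Values per library are given for the most abundant member of each role in WT, for the called members with the largest rise and fall in each contrast, and for genes with several copies. LHCA5, LHCA6 and other members are given by ranges or fold changes, and up to 4 called genes are named per other list and contrast.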

Additional observations from a re-analysis of the deposited data

Results flagged for a closer look

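Of the results given above, 1 differed between day and night by its own test, and it lies outside the 37 genes. The bou-2 effect on LHCB2.2, a copy of the major PSII antenna, was -1.43 at day and 0.15 at night on the log2 scale, a difference of -1.58 (edgeR interaction, adjusted p = 0.0326). LHCB2.2 was at 1987, 1615 and 2619 TPM in WT and 946, 844 and 698 TPM in bou-2 at day, and at 225, 225 and 239 TPM in WT and 259, 312 and 253 TPM in bou-2 at night. The LHCB1 and LHCB2 genes are near-identical copies in part, so values of this single copy are uncertain. Unlike the calls of the 37 members, this call was not followed through the alternative fits.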

How the results depend on the processing

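Of 185 member results (37 genes in 5 contrasts) 64 were called, 29 of these stayed called in each alternative run, and 0 reversed. Over the fits that each left out 1 library, the members lower in bou-2 numbered 15 to 29 at day and 9 to 20 at night, those higher at day 0 to 1, those higher at day than at night 9 to 16 in WT and 5 to 12 in bou-2, those lower at day 0 to 1 in WT and 0 to 1 in bou-2, and those with a lower day effect 0 to 2. With only the 6 libraries compared the counts in bou-2 were 9 lower and 0 higher at day and 29 lower at night, with 6 higher and 0 lower at day in WT, and 13 higher at day in bou-2. Either limma fit on TPM called 2 members lower at day in bou-2, and limma and DESeq2 each called 1 member, PSAD2, with a lower day effect. Some of these fits held fewer libraries, and the cause of these differences was not tested. Same-numbered libraries showed no shared deviation (correlations from -0.121 to 0.067 over 18 pairs), and the main fit used no pairing. Whether same-numbered replicates were grown or harvested together cannot be read from these correlations. With a replicate block 21 members were lower in bou-2 at day, 12 at night, 10 higher and 0 lower at day in WT, and 6 higher at day in bou-2. The estimated counts of single members were at least 343 per library apart from PSBP2, and counting error was not compared with the spread between libraries.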
